A study of Drosophila melanogaster
Gallus gallus with 8 samples.

Results

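The longest DNA:RNA hybrid regions of DT40 cells, those called as broad peaks of at least 5 kb, are described here as domains. They were chosen by measured length alone, in each genotype's list of broad peaks separately. Of 48468 *primpol* peaks 1510 were domains, and of 41445 WT peaks 1154 were, which makes 2664 of 89913 rows in both lists. DT40 is a B-cell line derived from chicken. Hybrids were recovered by DNA:RNA immunoprecipitation with the S9.6 antibody and sequenced (DRIP-seq), to compare where hybrids form with and without PrimPol. Libraries came from *primpol* cells, which lack PrimPol, and from WT cells. *Drosophila* S2 cells were mixed into the samples of both as a calibrator. The sources used here differ on the ratio of S2 to DT40 cells, and it enters no value below.

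For each genotype there were 2 DRIP libraries, 1 input library and 1 DRIP library treated with RNase H. The 2 DRIP replicates share 1 list, which the authors called on a single DRIP alignment against the input of the same genotype. Replicate error could therefore not be given, and the genotypes were compared without a test. Libraries treated with RNase H gave no values to the lists and were not used here, so the share of a domain that is sensitive to RNase H was not measured. Intervals given with shares are 95% Wilson intervals, which allow for counting error alone and take each peak as independent.

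R-loops arise mostly during transcription, where a new transcript stays base-paired to DNA behind the polymerase. RNase H enzymes degrade the RNA of such hybrids. Stable R-loops can impede replication forks. PrimPol combines primase and polymerase activity, reprimes DNA synthesis beyond a block and so limits the single-stranded DNA exposed at a stalled fork. A broad peak does not record a single R-loop. It records a stretch over which hybrids captured from many cells, on fragments from a restriction digest, add up to a signal above input. Genes under the domains were not analysed here, because no annotation of the chicken build Galgal5 was used.

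Domains made up 3.12% of *primpol* peaks (interval 2.96 to 3.27%) and 2.78% of WT peaks (2.63 to 2.95%). They held a far larger share of the covered sequence. In *primpol* 9.86 Mb of 65.4 Mb, or 15.1%, lay in domains, and in WT 7.52 Mb of 53.1 Mb, or 14.2%. Among peaks with a mean −log10 q-value of 2 or more, these shares were 33.8% in *primpol* and 34.2% in WT. The *primpol* list thus had 1.31 times as many domains as the WT list, where its number of peaks overall was 1.17 times as high. The share of peaks that were domains was 1.12 times as high in *primpol* (1.04 to 1.21, counting error only). The *primpol* input held 30302032 tags after removal of duplicates and the WT input 23107894, a ratio of 1.31, while the DRIP tags numbered 44735404 in *primpol* and 46425192 in WT. Because the larger data set was scaled to the smaller before calling, the difference in the number of domains and the difference in input depth cannot be told apart.

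The length of domains fell off steeply in both lists. The median was 6041 bp in *primpol* and 6086 bp in WT, where peaks overall had medians of 831 bp in *primpol* and 791 bp in WT. Domains of 5 to 6 kb numbered 729 in *primpol* and 534 in WT. Lengths of at least 10 kb were reached by 53 *primpol* and 41 WT domains, and lengths of at least 15 kb by 4 *primpol* and 3 WT domains. The longest spanned 20060 bp in *primpol* and 18903 bp in WT. At the lower bound, the 3 shortest domains measured 5002, 5003 and 5005 bp in *primpol* and 5004, 5005 and 5006 bp in WT. The 3 longest peaks left out measured 4999 bp each in *primpol*, and 4999, 4997 and 4995 bp in WT.

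The pileup of a broad peak, averaged over its length by the peak caller, is called height here. Domains tended to stand high as well as long. Median height was 21.5 in *primpol* domains against 17.7 in all *primpol* peaks, and 15.9 in WT domains against 13.9 in all WT peaks. Each list has its own input scale, so heights can be set side by side within a list but not across the lists. Ranked among the peaks of the same list and chromosome, domains had a median percentile of 92.0 in *primpol* and 85.7 in WT. Above the 90th percentile of their chromosome lay 853 *primpol* domains (56.5%) and 428 WT domains (37.1%). Below the median of their chromosome lay 29 *primpol* domains (1.92%) and 71 WT domains (6.15%). In *primpol* the median percentile was higher in each longer class of peaks. In WT the same held from 0.5 kb upwards, and the classes on either side of that length had medians of 42.4 and 42.2. Length and height come from the same signal, so this is a description of the domains and not an independent property.

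**Figure D1:**
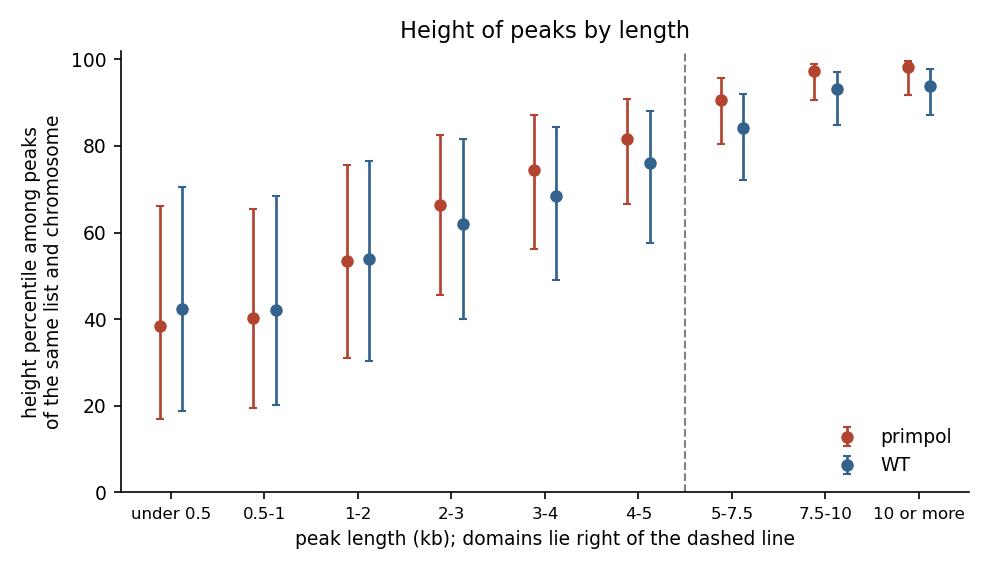
Height percentile of a peak among peaks of the same list and chromosome (vertical axis, percent) by peak length (horizontal axis, kb), with *primpol* left of WT in each class. Points are medians and bars interquartile ranges over peaks; the medians of peaks of 10 kb or more are 98.3 in *primpol* and 93.8 in WT, against 38.5 in *primpol* and 42.4 in WT in peaks under 0.5 kb.

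Among the 100 highest peaks of each list, 20 in *primpol* and 8 in WT were domains, where domains made up 3.12% of all *primpol* and 2.78% of all WT peaks. The −log10 q-value, averaged over the peak by the caller, had a median in domains of 2.37 in *primpol* and 2.17 in WT, against 1.57 in all *primpol* peaks and 1.51 in all WT peaks. Fold enrichment over input had a median of 2.47 in *primpol* domains and 2.81 in WT domains, where all peaks had 2.30 in *primpol* and 2.55 in WT. The local background derived from height and fold enrichment was also raised, by a factor of 1.13 over the list median in *primpol* domains and of 1.04 in WT domains.

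Of the 5 longest domains in each list, 4 lay at the same place in both. The longest *primpol* domain, chr1:83144352-83164411 (coordinates in Galgal5), covered 20060 bp at a height of 24.6. In WT it appeared as 3 peaks of 15320, 345 and 2697 bp, which together covered 91.4% of it. The *primpol* domain at chr5:32886650-32905830 spanned 19181 bp and had a single WT partner of 18903 bp, the longest WT domain. That at chr11:9803436-9821834 spanned 18399 bp against 18350 bp in WT, where the first bases of the calls were 2 bp apart. That at chr2:48082946-48097361 spanned 14416 bp against 14176 bp in WT. Among the 5 longest, the *primpol* domain at chr8:2742867-2761332 stood apart. Its 18466 bp were covered in WT by 5 separate peaks of 7841, 1848, 844, 2758 and 1004 bp, with gaps of 851 to 1101 bp between them.

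The tallest domain in both lists lay on an unplaced sequence, AADN04005785.1, between bases 148 and 6212 in *primpol* and 155 and 6196 in WT. Its height was 51.7 in *primpol* and 33.4 in WT, with fold enrichments of 5.11 in *primpol* and 5.85 in WT. The next in *primpol* were both on chromosome 2, at chr2:9888313-9898015 with a height of 39.7 and at chr2:144875842-144886681 with a height of 39.0. The second of these was also the second tallest in WT, with a height of 29.4 and ends within 21 bp of the *primpol* call. The third in WT was chr2:24848065-24853174, 5110 bp long with a height of 27.7. Unplaced sequences held 5 *primpol* domains on 4 different sequences, and 4 WT domains on 3. That was only 0.448% of their *primpol* peaks and 0.439% of their WT peaks, against 3.12% and 2.78% over the whole lists.

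Most domains lay on the largest chromosomes, which also held most peaks. Chromosomes 1 to 5 held 1209 of the *primpol* domains (80.1%, against 73.0% of *primpol* peaks) and 927 of the WT domains (80.3%, against 72.9% of WT peaks). There, 3.42% of *primpol* peaks and 3.07% of WT peaks were domains. Chromosomes 6 to 10 had similar shares, 3.25% in *primpol* (2.80 to 3.76%) and 2.83% in WT (2.39 to 3.35%). On the small microchromosomes 16 to 33 only 22 domains were found in each list, which was 1.32% of *primpol* peaks (0.870 to 1.98%) and 1.05% of WT peaks. Per Mb between the start of a chromosome and its last peak, chromosomes 1 to 5 held 1.99 *primpol* and 1.53 WT domains, and chromosomes 16 to 33 held 0.244 in both lists. Peaks of any length were also sparser on chromosomes 16 to 33, with 18.5 per Mb in *primpol* and 23.3 in WT. On chromosomes 1 to 5 there were 58.2 in *primpol* and 49.7 in WT. Microchromosomes are the many short chromosomes of birds and are rich in genes. How gene density, sequence composition or restriction fragment length vary with these shares was not tested.

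**Figure D2:**
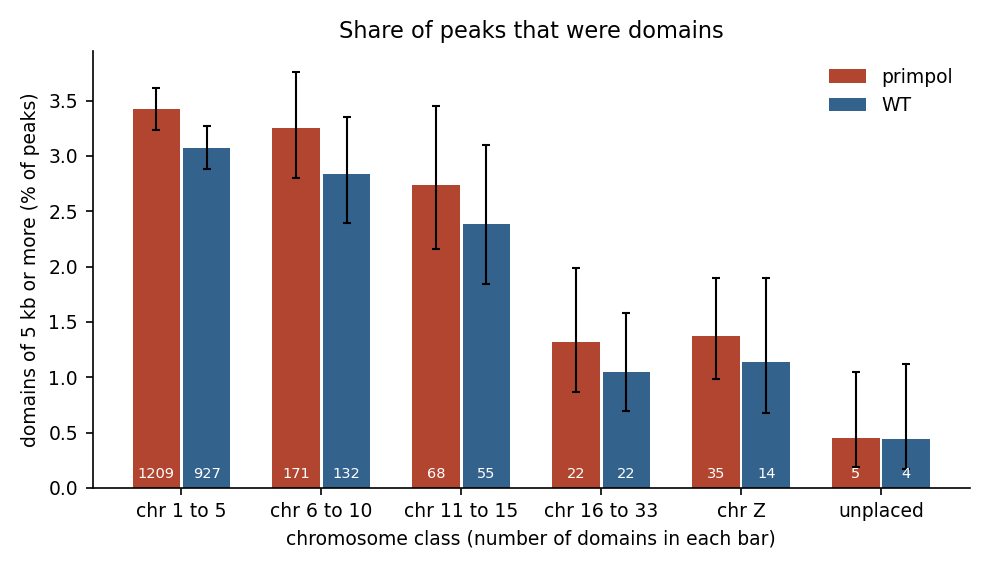
Domains as a percentage of the peaks in each class of chromosomes (vertical axis), with *primpol* left of WT; bars are shares, lines 95% Wilson intervals, and the number in each bar is the number of domains. The share falls to 1.32% in *primpol* and 1.05% in WT on chromosomes 16 to 33, and in both lists chromosome Z lies near that level. Unplaced sequences lie lower still, at 0.448% in *primpol* and 0.439% in WT.

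Chromosome 2 held more domains than any other, 383 in *primpol* and 301 in WT. That was 25.4% of *primpol* domains against 20.95% of *primpol* peaks, and 26.1% of WT domains against 22.5% of WT peaks. Of its own peaks, 3.77% in *primpol* and 3.23% in WT were domains. This share was not the highest of any chromosome, as chromosome 8 had 4.38% in *primpol* and 3.57% in WT. The domains of chromosome 2 were also tall, with a median height of 27.4 in *primpol* and 19.99 in WT. Those of chromosome 1 had 20.3 in *primpol* and 14.98 in WT. The local background moved with height. Over all peaks of chromosome 2 its median was 10.001 in *primpol* and 6.57 in WT, against 6.55 in *primpol* and 4.38 in WT on chromosome 1. Median fold enrichment of the domains was not higher there, at 2.34 in *primpol* and 2.68 in WT, against 2.54 in *primpol* and 2.89 in WT on chromosome 1. The same held on chromosome 20. Its 11 *primpol* domains had a median height of 28.2 and its 7 WT domains one of 22.4, with a local background over all peaks of 10.7 in *primpol* and 7.18 in WT. The number of copies of either chromosome in these cells was not tested. Within their own chromosome, domains of chromosome 2 stood at a median percentile of 92.3 in *primpol* and 87.7 in WT, where domains elsewhere had 91.7 in *primpol* and 85.3 in WT.

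The domains of the sex chromosomes were few and low. Chromosome Z held 35 *primpol* and 14 WT domains, a ratio of 2.5, where its peaks overall had a ratio of 2.07. Median height on Z was 12.7 in *primpol* domains, with a range of 10.8 to 15.6, and 10.5 in WT domains, with a range of 10.01 to 12.2. These were the lowest medians of any class, and the local background over all Z peaks was low as well, at 3.47 in *primpol* and 2.49 in WT. No domain was called on chromosome W, which held 16 *primpol* and 5 WT peaks. With so few peaks, a share of domains of up to 19.4% in *primpol* remains within the interval.

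Domains were spaced widely. The gap from a domain to the next on the same chromosome had a median of 259 kb in *primpol* (interquartile range 88.3 to 644 kb) and 368 kb in WT (129 to 942 kb). The largest gaps were 10.4 Mb in *primpol* and 13.2 Mb in WT. Gaps of at most 100 kb made up 27.8% in *primpol* and 20.4% in WT, and gaps of at most 10 kb made up 2.97% in *primpol* and 2.22% in WT. Between neighbouring peaks of any length, 52.0% of gaps in *primpol* and 46.8% in WT were at most 10 kb. Domains were only 3.12% of *primpol* and 2.78% of WT peaks, so wider gaps between them are given by their number. The WT list, with the wider gaps, also held fewer domains. No more than 3 domains followed each other with gaps of at most 20 kb. Runs of 2 or 3 such domains numbered 89 in *primpol*, with 191 domains, and 56 in WT, with 118 domains. A gap can never be shorter than the caller allows. The smallest gap between any 2 peaks was 749 bp in *primpol* and 733 bp in WT, in each list 1 bp more than 4 times its fragment length of 187 bp in *primpol* and 183 bp in WT.

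In windows of 1 Mb along the assembled chromosomes, 438 of 1034 windows had no *primpol* domain and 477 had no WT domain. The number per window had a mean of 1.46 in *primpol* and 1.11 in WT. These windows pool chromosomes whose domain density differs, as given above, so their counts are not a measure of clustering. At least 5 domains were found in 76 windows in *primpol*, which together held 487 domains, and in 34 windows in WT, which held 209. Both lists had a domain in 498 windows, *primpol* alone in 98 and WT alone in 59.

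The densest window lay on chromosome 2, starting at 27 Mb, and was nearly the same in both genotypes. It held 12 *primpol* domains of 5663 to 9829 bp and 13 WT domains of 5258 to 9807 bp, which covered 8.12% of the window in *primpol* and 8.57% in WT. All 12 *primpol* domains overlapped exactly 1 WT peak, in each case a domain. The additional WT domain, chr2:27116773-27123512, was met in *primpol* by 2 peaks of 2555 and 4145 bp. A second window on chromosome 2, starting at 95 Mb, had 12 domains in *primpol* and 8 in WT. Of these 12, 8 overlapped a WT domain, and 4, among them 1 of the 8, overlapped 2 or more WT peaks. The first domain of that window, chr2:95001498-95006757, fell on 3 WT peaks of 1098, 1600 and 791 bp.

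Close neighbours were less common around domains than around peaks overall. The nearest peak of any length lay at a median of 4.56 kb from *primpol* domains and 5.45 kb from WT domains, against 3.55 kb from all *primpol* peaks and 4.10 kb from all WT peaks. A neighbour within 1 kb was found for 9.34% of *primpol* domains and 8.75% of WT domains, where 17.2% of all *primpol* and 16.9% of all WT peaks had one. Wider surroundings were alike. No other peak lay within 10 kb of 23.3% of *primpol* and 30.5% of WT domains, against 25.6% of all *primpol* and 30.2% of all WT peaks. Within 10 kb, domains had a mean of 1.54 other peaks in *primpol* and 1.26 in WT, against 1.44 for all *primpol* peaks and 1.25 for all WT peaks.

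Nearly every domain was met by signal in the other genotype. Of the 1510 *primpol* domains, 1508 overlapped a WT peak by at least 1 bp (99.9%), against 57.8% of all *primpol* peaks. Each of the 1154 WT domains overlapped a *primpol* peak, against 69.7% of all WT peaks, and a count of 0 without one allows a share of up to 0.332%. The share rose with length over all peaks, and was already 99.4% in *primpol* and 100% in WT for peaks of 4 to 5 kb. Presence of a partner was thus not particular to domains. At least 50% of the domain was covered in 95.4% of *primpol* domains, against 41.6% of all *primpol* peaks, and in 99.0% of WT domains, against 56.3% of all WT peaks. In all, 87.4% of *primpol* domain sequence was covered by WT peaks and 94.7% of WT domain sequence by *primpol* peaks, where the shares over all peaks were 56.5% in *primpol* and 69.6% in WT. Peaks of 4 to 5 kb lay between, with 77.6% of their sequence covered in *primpol* and 88.9% in WT.

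The form of the partner differed more than its presence. Exactly 1 WT peak lay over 1088 *primpol* domains (72.1%), and exactly 1 *primpol* peak over 978 WT domains (84.7%). Fragmented partners, meaning 2 or more peaks of the other list, were found for 420 *primpol* domains (27.8%, 25.6 to 30.1%) and 176 WT domains (15.3%). Over all peaks, that was the case for 4.94% in *primpol* and 3.88% in WT. Peaks of 4 to 5 kb had fragmented partners in 31.7% of cases in *primpol* and 21.5% in WT, so fragmentation was not particular to domains either. The higher share in *primpol* and its deeper input cannot be told apart. When both lists were restricted to a mean −log10 q-value of 2 or more, fragmented partners were left for 5.58% of *primpol* and 4.23% of WT domains. Median values were 1.57 in *primpol* and 1.51 in WT over all peaks, against 2.37 and 2.17 in domains. Domains thus pass this filter more readily than peaks at large. The q-values of the partner peaks were not taken separately, so how far the filter itself lowered the fragmented share was not tested. The number of fragments was mostly 2, in 338 *primpol* and 158 WT domains. It was 3 in 77 *primpol* and 16 WT domains, 4 in 4 *primpol* and 2 WT domains, and 5 in the single *primpol* domain on chromosome 8 described above. The gaps between fragments were short, with a median of 896.5 bp in *primpol* domains and 901 bp in WT domains. Under 1 kb were 64.6% of these gaps in *primpol* domains and 63.8% in WT domains, not far above the smallest gap the caller leaves.

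**Figure D3:**
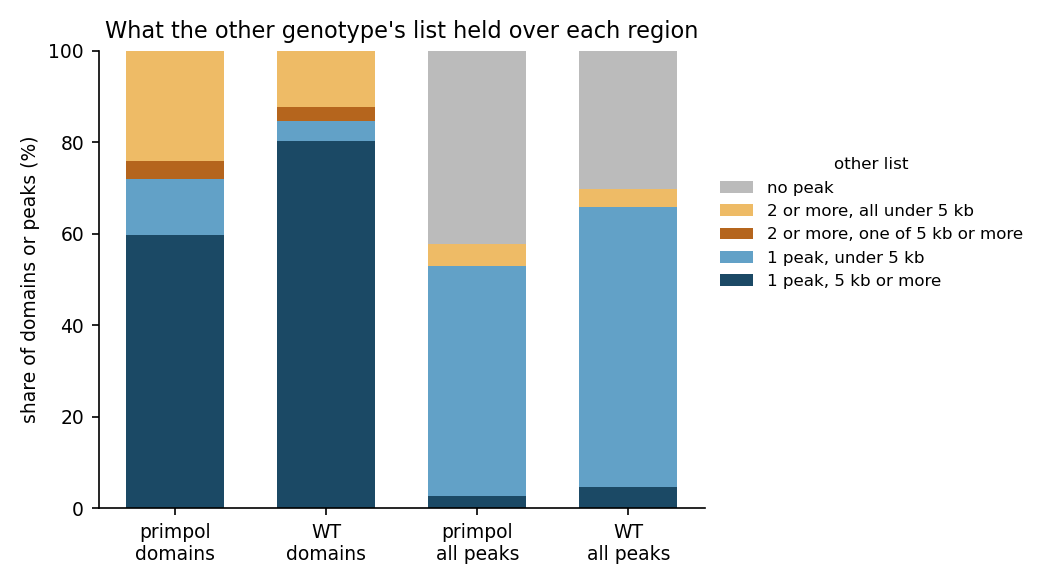
Share of domains and of all peaks (vertical axis, percent) by what the other genotype's list held over them, with *primpol* left of WT for domains and for all peaks. Partners of 2 or more peaks, in orange and brown together, lay over 27.8% of *primpol* and 15.3% of WT domains, and the grey part without a peak is too thin to see for the 2 *primpol* domains that had none.

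Many domains met a partner that was itself a domain, namely 960 *primpol* domains (63.6%), against 2.78% of all *primpol* peaks, and 961 WT domains (83.3%), against 4.86% of all WT peaks. A domain was selected on length in its own list, and its partner was not. Where partners existed but none reached 5 kb, in 548 *primpol* and 193 WT domains, the longest partner had a median length of 3566 bp over *primpol* domains and 3731 bp over WT domains. It measured 4 to 5 kb in 217 of the *primpol* cases (39.6%) and 74 of the WT cases (38.3%), just short of the length that defines a domain. The domains in question were themselves shorter, with a median of 5528 bp in *primpol* and 5560 bp in WT, against 6472 bp in *primpol* and 6227 bp in WT for those with a domain as partner. They also stood lower, at a median percentile within their chromosome of 84.3 in *primpol* and 79.0 in WT, against 94.6 in *primpol* and 87.0 in WT. At 10 kb and above, 98.1% of *primpol* and 95.1% of WT domains met a domain.

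A few domains were split far more than the rest. The *primpol* domain chr1:191160771-191170382, 9612 bp long with a height of 16.3, had 4 WT peaks of 368, 1069, 1049 and 1285 bp that covered only 37.8% of it. A gap of 3476 bp followed the first of them. The *primpol* domain chr1:19342568-19352130, of 9563 bp, had 4 WT peaks covering 62.6%, the longest of 4206 bp. Splitting ran the other way too. The WT domain chr4:60825648-60833419, 7772 bp long, was met in *primpol* by 4 peaks covering 59.6%, and the WT domain chr3:44596266-44601720, 5455 bp long, by 4 peaks covering 49.2%. At chr1:180665434-180678443 a WT domain of 13010 bp, with a height of 17.3, had 3 *primpol* peaks covering 73.8%. Most of that was a *primpol* domain of 7881 bp.

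**Figure D4:**
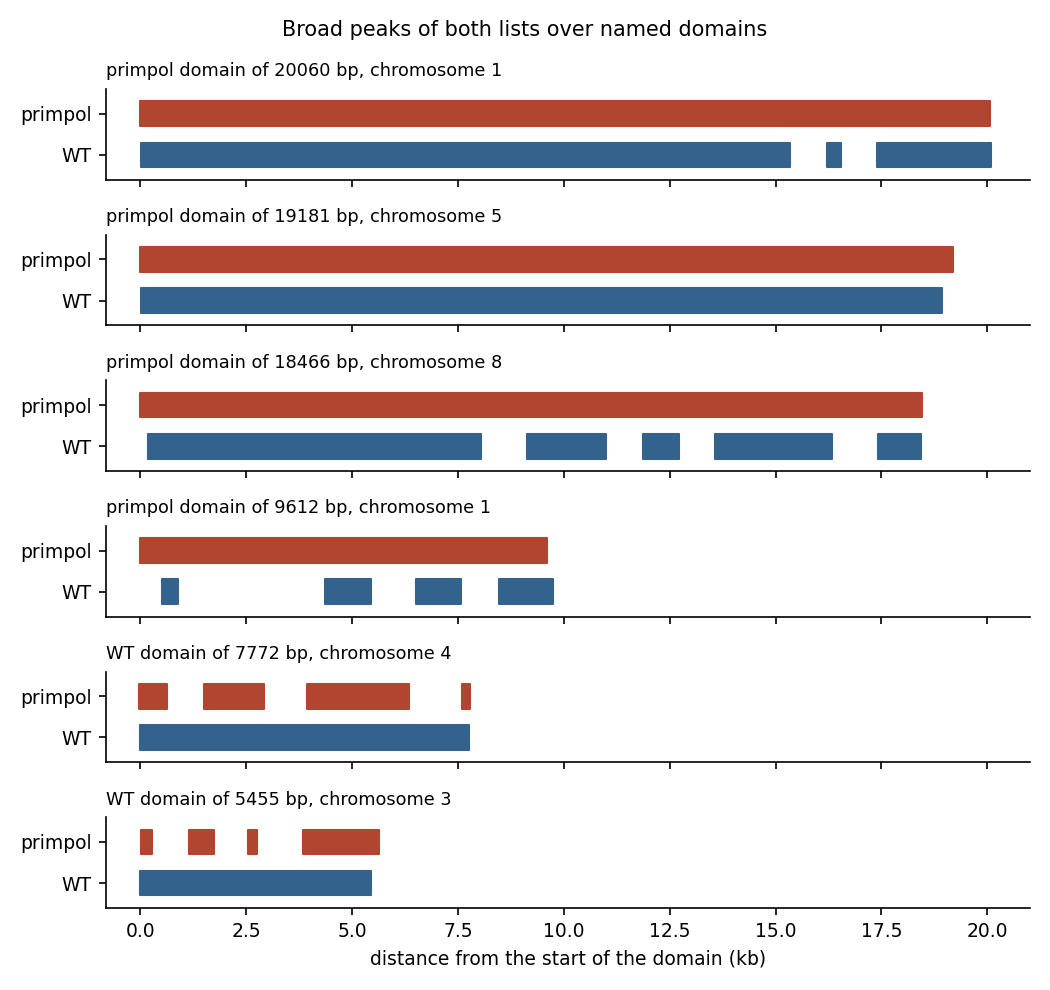
Broad peaks of *primpol* (upper row) and WT (lower row) over 6 named domains, by distance in kb from the start of the domain (horizontal axis). The *primpol* domain of 19181 bp is met by a single WT peak, those of 18466 and 9612 bp by 5 and 4 WT peaks, and the WT domains of 7772 and 5455 bp by 4 *primpol* peaks each.

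Only 2 domains had no partner at all, both in *primpol* (0.132%). The longer, chr3:69311910-69317874, spanned 5965 bp with a height of 20.8 and a fold enrichment of 2.59. The nearest WT peaks lay 15973 bp to its left and 15003 bp to its right. The other, chr1:11081593-11086862, spanned 5270 bp with a height of 19.1, and a WT peak ended 3639 bp to its left. The first of these heights lay inside the interquartile range of *primpol* domains, 19.7 to 24.9, and the second below it.

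Of all classes of chromosomes, Z had the smallest share of *primpol* domain sequence covered in WT, at 71.1%. Of the 35 *primpol* domains there, 21 had fragmented partners (60.0%, 43.6 to 74.4%), against 27.1% of *primpol* domains elsewhere (24.8 to 29.4%), and 11 met a WT domain. Of the 14 WT domains on Z, 11 met a *primpol* domain and 4 had fragmented partners, with 94.1% of their sequence covered. The share with fragmented partners over all peaks of Z was not computed, so the values do not show whether it is particular to domains there. The *primpol* list had 2553 peaks on Z and the WT list 1235, and whether the depth of Z in the libraries played a part was not tested. On chromosome 2, 23.2% of *primpol* domains had fragmented partners (19.3 to 27.7%), against 29.4% on all other sequences (26.8 to 32.1%). These intervals overlapped. In WT the shares were 9.97% on chromosome 2 (7.07 to 13.9%) and 17.1% on all other sequences (14.7 to 19.8%). The share over all peaks of chromosome 2 was not computed either, so whether a lower share is particular to its domains was not tested.

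The ends of domains often coincided between the genotypes. From the start or end of a domain to that of the outermost overlapping peak in the other list, the median distance was 132 bp in *primpol* and 112 bp in WT, less than the fragment length. Within 100 bp lay 43.8% of *primpol* and 47.3% of WT domain ends, against 28.5% of *primpol* and 29.1% of WT ends of peaks of 1 to 5 kb. Both ends lay within 100 bp for 19.6% of *primpol* domains and 22.3% of WT domains, against 8.95% of the shorter *primpol* peaks and 9.44% of the shorter WT peaks. DNA was cut with the same restriction enzymes in both genotypes before the immunoprecipitation. The positions of the cut sites in relation to domain ends were not analysed here.

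In 872 cases a *primpol* domain and a WT domain overlapped each other and nothing else. These pairs were close in extent. Both members had to reach 5 kb, so domains with only shorter or with fragmented partners were left out. Part of the closeness in length and extent is thus set by this choice. At a given offset of the ends, the shared part is also larger in longer pairs. The shared sequence made up a median of 95.9% of the joined span, against 77.8% in pairs of peaks of 1 to 5 kb. Length differed little, with a median ratio of *primpol* to WT of 1.02 and an interquartile range of 0.996 to 1.05. The *primpol* domain was nevertheless the longer in 613 pairs (70.3%) and the WT domain in 258, and the median difference over all pairs, *primpol* minus WT, was 113 bp. In pairs of 1 to 5 kb the *primpol* peak was the longer in 61.1%.

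**Figure D5:**
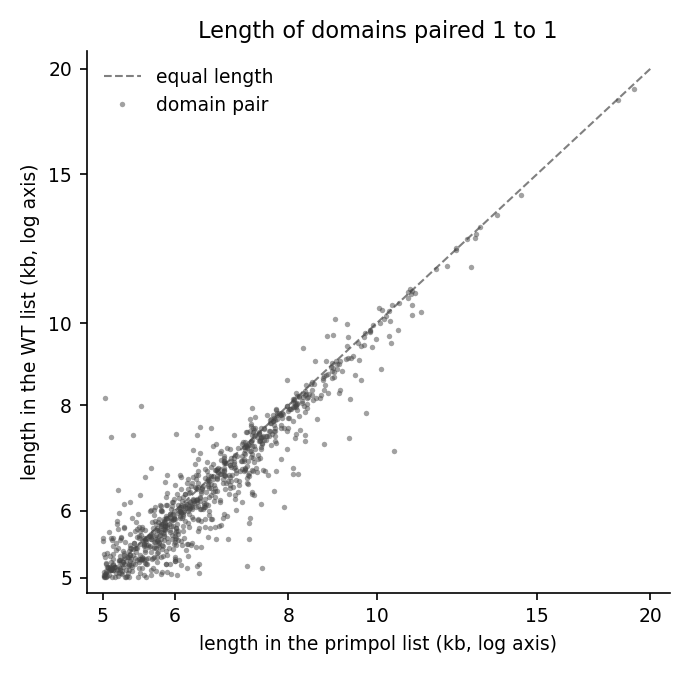
Length of 872 domains paired 1 to 1, in *primpol* (horizontal axis, kb) and in WT (vertical axis, kb), both on log axes, with a dashed line at equal length. Points crowd along the line with a median length ratio of *primpol* to WT of 1.02, and 613 of them lie on the *primpol* side, below the line.

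The direction of the height difference in these pairs depended on the scale. As deposited, the median ratio of *primpol* to WT height was 1.39, and the lowest ratio of any pair was 1.10. Divided by the number of input tags the ratio was 1.06, with an interquartile range of 1.02 to 1.10. For fold enrichment it was 0.887, so the *primpol* value was the lower on that scale. Pairs of 1 to 5 kb gave 1.33, 1.012 and 0.894 on the same 3 scales. The local background in domain pairs had a ratio of *primpol* to WT of 1.63, above the ratio of input tags of 1.31. None of these scales uses the *Drosophila* reads, so the amount of hybrid per cell in domains was not compared between the genotypes.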

How the data were processed

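DRIP-seq libraries of *primpol* and WT DT40 cells were assigned to genotype and treatment by their labels. The authors trimmed reads with Trim Galore 0.4.4, aligned them with Bowtie2 2.2.6 to Galgal5 and the *Drosophila* genome, and called broad peaks with MACS2 2.1.1.20160309. Per the file headers, strong regions had a q-value cutoff of 0.05 and weak regions of 0.1. DRIP data were scaled to the smaller input, so heights are on the input scale. The deposited values are peak length in bp, signal (mean pileup, called height), the fold enrichment ratio over local background, and −log10 p-values and −log10 q-values, all averaged over the peak apart from length. The way in which 2 DRIP replicates entered 1 alignment is not given in the sources used here.

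Domains were selected at 5000 bp or more. They and the alternatives were chosen with earlier results of these data known. Peaks that shared at least 1 bp counted as overlapping. Local background was derived from height and fold enrichment, each with 1 added. Named domains were, in each list, the 5 longest, the 3 highest, the 3 with most peaks of the other list over them, up to 3 without a partner, the 3 nearest the length bound on each side, and those of the densest 1 Mb window. The software was Python 3.11.15, numpy 2.4.6, scipy 1.17.1, pandas 2.3.3 and matplotlib 3.10.9. Counts of overlapping peaks and of covered bases were tested on simulated data. Merging within 1 kb was not tested in this way, and the scaling to input depth only against its own formula. RNase H-treated libraries, *Drosophila* reads and gene context were not used here.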

Additional observations from a re-analysis of the deposited data

How the results depend on the processing

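No paired analysis was possible because the 2 replicates of a genotype share 1 list and no result comes from a test. The main limits are that replicates cannot be compared, that *primpol* input was deeper, and that the length bound is arbitrary. With a minimum of 4000 bp there were 2930 *primpol* domains with 24.8% of covered sequence, 60.0% meeting a WT domain, 83.5% of their sequence covered in WT and a median gap of 135.9 kb. In WT there were 2240, with 23.3% of covered sequence, 78.4% meeting a *primpol* domain, 92.5% of their sequence covered in *primpol*, 18.3% fragmented and a gap of 191 kb. The height ratio in pairs was then 1.38. With 7500 bp there were 289 *primpol* domains with 3.99% of covered sequence, 90.8% of theirs covered in WT, a gap of 1209 kb and a partner for 100%. In WT there were 214, with 3.63% of covered sequence, 96.7% of theirs covered, 12.6% fragmented and a gap of 1940 kb. The height ratio was 1.41. The ratio of domain numbers was 1.31 at 4000 bp and 1.35 at 7500 bp.

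Merging peaks within 1 kb gave domains 19.2% of covered sequence in *primpol* and 18.5% in WT, fragmented partners for 18.7% in *primpol* and 11.4% in WT, and gaps of 191.6 kb in *primpol* and 271 kb in WT. When peaks within 1 kb counted as overlapping, 31.3% of *primpol* and 19.7% of WT domains had fragmented partners. Requiring 50% of the domain to be covered left 95.4% of *primpol* and 99.0% of WT domains with a partner. A minimum of 2 on the −log10 q-value scale left 1164 *primpol* and 756 WT domains, a ratio of 1.54. It removes short peaks more readily than domains. Of covered sequence, 33.8% in *primpol* and 34.2% in WT lay in them. A partner was then found for 70.5% of *primpol* and 93.3% of WT domains, a fragmented one for 5.58% in *primpol* and 4.23% in WT, and a domain for 54.6% in *primpol*. Covered in the other list were 64.7% of *primpol* and 89.2% of WT domain sequence, and gaps were 318 kb in *primpol* and 516 kb in WT.

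Scaled down to the WT input depth, the *primpol* list kept 1504 domains, or 99.6%, and 61.9% of its peaks, with 19.3% of covered sequence in domains. Against it, 12.05% of WT domains had fragmented partners. The WT domains split into 4 on chromosomes 4 and 3 then met 3 *primpol* peaks on chromosome 4 and 2 on chromosome 3. This scaling keeps or drops a peak whole and does not shorten it, so it says nothing about the length a domain would have at lower depth. No height ratio was computed for merged peaks or for the scaled list. As for the deposited list, the height ratio in domain pairs was 1.06 per input tag and turned round to 0.887 as fold enrichment. The scaling also only takes *primpol* peaks away, so the fragmented share of WT domains could not rise under it. It is therefore left out of the comparison of the genotypes. Under every other alternative run for it, the fragmented share stayed higher in *primpol* than in WT, and the ratio of domain numbers stayed above 1. With the minimum of 2 on the −log10 q-value scale, however, the intervals of the fragmented share overlapped. They were 4.41 to 7.06% in *primpol* and 3.01 to 5.91% in WT. Restriction to assembled chromosomes changed none of these values beyond its interval. The alternatives for the gap were chosen after seeing the data. Gene context was not run.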
